A study of Mus musculus with 8 samples.

Results

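Amino acid transporters were examined in liver RNA of mice given an active form of TAZ together with repeated liver injury by carbon tetrachloride (CCl4). The set holds 60 of the 35204 gene symbols in the deposited table. It was defined by symbol and not by expression values, but with earlier results of these data known. It covers Slc1a1 to Slc1a7, Slc3a1 and Slc3a2, Slc16a10, and all Slc6a, Slc7a, Slc36a, Slc38a and Slc43a genes except 2. Of these, 32 reached a mean of at least 10 normalised counts over the 8 libraries and were tested with the other genes that did so, 14171 in all. The remaining 28 lay below that level, and Slc6a11 and Slc7a12 were listed at 0 in every library.

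Messenger RNA was sequenced from liver pieces of C57BL/6J mice, all labelled wild type. The 3 control libraries came from untreated mice. The 5 TAZ-CCl4 libraries came from mice that received a plasmid with TAZ S89A under the EF1a promoter by HTVI (hydrodynamic tail vein injection) and 30 injections of CCl4, given 3 a week for 10 weeks. TAZ, the product of Wwtr1, is a co-activator of the Hippo pathway that acts through TEAD factors, and the S89A change removes an inhibitory phosphorylation site. Hydrodynamic injection delivers plasmid mainly to hepatocytes, and CCl4 is a liver toxin that damages hepatocytes around the central vein. No library received only TAZ or only CCl4, so the parts of the treatment cannot be told apart. The labels do not say whether a piece was tumour or surrounding liver, give no age or sex, and do not state that each library is a separate mouse, and the p-values therefore reflect variation among these libraries, part of which may be technical.

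Amino acid carriers decide which amino acids a cell takes up, releases or exchanges with blood and neighbouring cells. In liver, hepatocytes take up alanine and glutamine through sodium-coupled carriers of the SLC38 family and arginine through a carrier of the SLC7 family, and feed them to gluconeogenesis and the urea cycle. Exchangers built from an SLC3 heavy chain and an SLC7 light chain trade intracellular amino acids for essential ones, and dividing cells of many kinds use them. Some SLC38 and SLC36 members sit on the lysosome, where amino acids are sensed by the mTORC1 kinase complex. Several SLC6 members carry osmolytes and other compounds (taurine, betaine, creatine) instead of protein amino acids.

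The values are the authors' normalised counts. Their sum per library was 29.8 to 35.1 M for controls and 12.4 to 14.2 M for TAZ-CCl4, so the scaling matters for direction. Setting the libraries to equal totals raised the median over all tested genes, as a log2 fold change, from 0.03 to 1.26, and the other scalings put it at -0.05 to 0.85. Fold changes below are differences of log2(value + 1), TAZ-CCl4 minus control, on the deposited scaling, and directions that turn at another scaling are named as such. The labels give 1 project ID for the controls and another for the TAZ-CCl4 libraries, so project and treatment cannot be told apart. Wwtr1 was at 280, 358 and 463 normalised counts in controls and at 4339 to 9021 in the TAZ-CCl4 libraries, a value that cannot separate RNA of the construct from that of the mouse gene. Other cell types moved with the groups as well. Summed hepatocyte markers ranged from 1923300 to 2409670 normalised counts in controls and from 684952 to 995215 in TAZ-CCl4, of which albumin (Alb) gave the greater part, and per 1 M of the library total the ranges overlapped, at 54865 to 80223 and 53656 to 70333. Without Alb, the other 7 markers came to 21623 to 27623 per 1 M in controls and 9509 to 19946 in TAZ-CCl4. The sum of cholangiocyte and progenitor markers went from 1867 to 2552 normalised counts up to 33623 to 119852. Spp1 gave the greater part of that sum, at 1604 to 2254 in controls and 30489 to 115100 in TAZ-CCl4. All 6 tested markers of this list were called higher, but the groups overlapped for Krt19. In bulk tissue, fewer cells of a type and less RNA per cell cannot be told apart.

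Most of the tested transporters differed between the groups, and they went both ways. Of the 32 tested members, 16 rose and 11 fell, and 5 did not pass (limma, Benjamini-Hochberg adjusted p threshold of 0.05). That is 84.4% of the tested members called, against 62.3% of all tested genes. By direction, 50% of members were called higher against 32.4% of all genes, and 34.4% were called lower against 29.8%. Slc6a19 and Slc6a16 entered the test only through the group where they are high. Of the 30 members with both group means at or above 10, 15 rose and 10 fell (83.3% called), where 28.5% of such genes rose and 31.3% fell (59.7% called). The median log2 fold change was 0.41 over the tested members and 0.03 over all tested genes. In 27 of the 32 the values of the groups did not overlap, which held for 60.1% of all tested genes. At equal totals 22 members were called higher and 8 lower, against 76.3% and 6.37% of all genes. At equal totals computed without the major urinary protein (Mup) and mitochondrial genes, 19 were called higher and 8 lower, against 62.9% and 10.7%. With upper quartiles set equal the members' counts were 17 and 11, against 38.6% and 23.4% of all genes, and under quantile normalisation they were 13 and 8, against 27.8% and 29.8%. Calls in either direction made up 82.6%, 73.6%, 62.0% and 57.6% of all tested genes under these 4 scalings, in the order given. The 16 called higher kept their sign under the 4 other scalings and 11 of them passed under each, while of the 11 called lower 8 kept their sign and 7 passed under each.

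**Figure D1:**
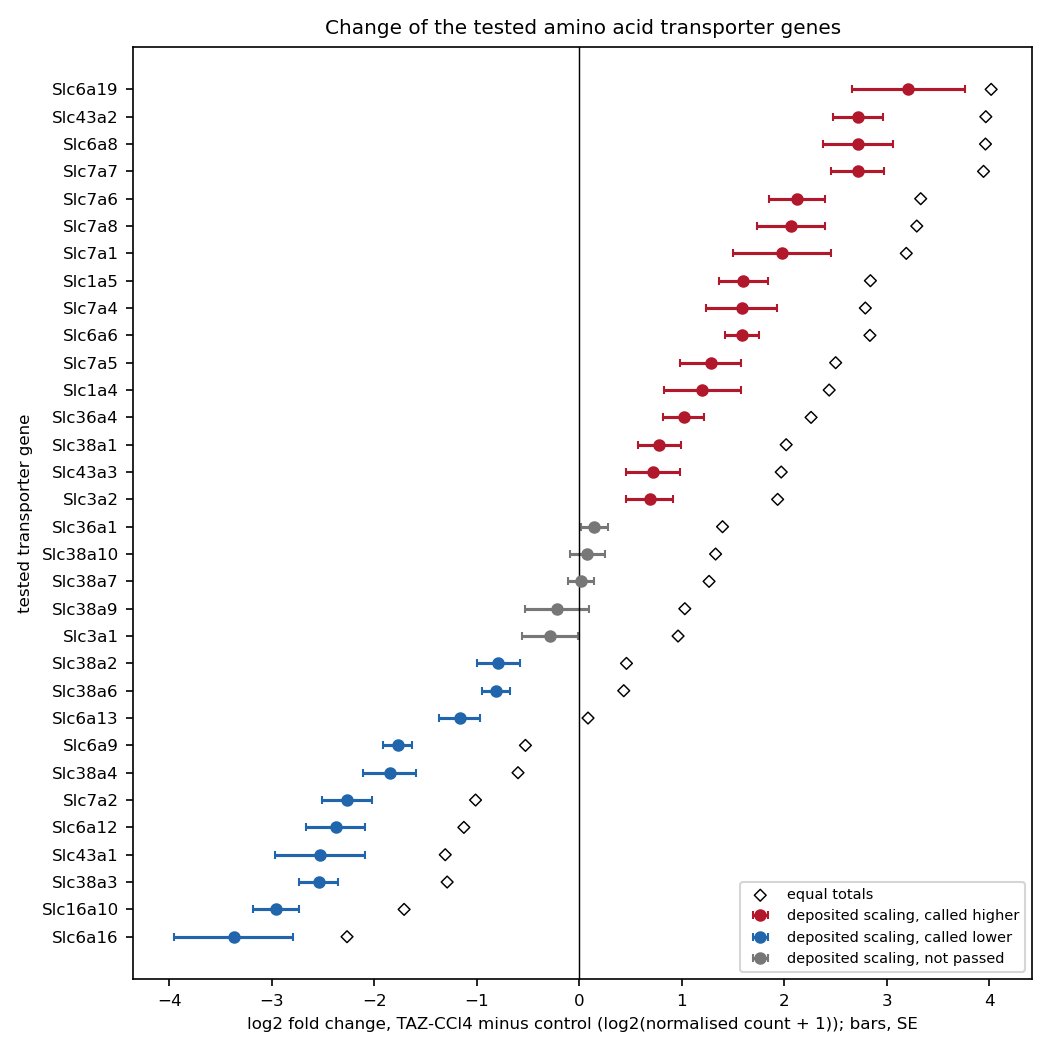
Log2 fold change (TAZ-CCl4 minus control, log2 of the normalised count + 1) of the 32 tested amino acid transporters, with its standard error from limma, and the value at equal totals beside it. Values run from -3.37 for Slc6a16 to 3.21 for Slc6a19, both of which passed the level filter through 1 group alone, and the marks at equal totals lie to the right of the deposited ones.

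The 2 carriers most abundant in control liver, Slc38a3 and Slc38a4, made up a smaller share of all transporter RNA in TAZ-CCl4, while the next most abundant, Slc6a13, did not. To compare levels between genes, normalised counts were divided by the mean length of each gene's protein-coding transcripts (per kb). On that scale Slc38a3 was the highest member in controls, at 11555 normalised counts per kb, followed by Slc38a4 at 7813, Slc6a13 at 2463 and Slc7a2 at 1713. Slc38a3 and Slc38a4 together made up 66.8% ± 1.54 (SD, n = 3) of the per-kb sum over the 60 members in controls and 38.7% ± 6.52 (SD, n = 5) in TAZ-CCl4, where the libraries ranged from 31.1% to 45.6%. Slc7a2 went from 5.87% ± 0.865 to 3.29% ± 0.694 and Slc6a12 from 3.94% ± 0.822 to 2.08% ± 0.672. Slc6a13 was at 8.52% ± 0.360 and 10.4% ± 2.87, with overlapping libraries. Slc38a2 went the other way, from 2.60% ± 0.261 to 4.16% ± 1.46, as did Slc38a10, from 1.88% ± 0.153 to 5.38% ± 1.13, without overlap in either. Such shares do not depend on how libraries are scaled against each other. They are tied to each other, so a member can gain share when others lose it, without a rise of its own. In level, on the deposited scaling, Slc38a2 was called lower and Slc38a10 did not pass. The taurine carrier Slc6a6 went from 0.967% ± 0.0707 to 7.82% ± 1.40 of the per-kb sum, and from place 13 to place 4 among the members. Slc16a10, an aromatic amino acid carrier, went from place 10 to place 23.

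The members' counts summed to 85941 ± 8875 normalised counts in controls and 35011 ± 4020 in TAZ-CCl4. Per 1 M of each library's total they came to 2745 ± 490.3 in controls and 2636 ± 225 in TAZ-CCl4. The ranges, 2206 to 3165 and 2354 to 2964 per 1 M, overlapped, so the difference in the sum went with the scaling, while the make-up of the sum does not depend on a factor per library.

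**Figure D2:**
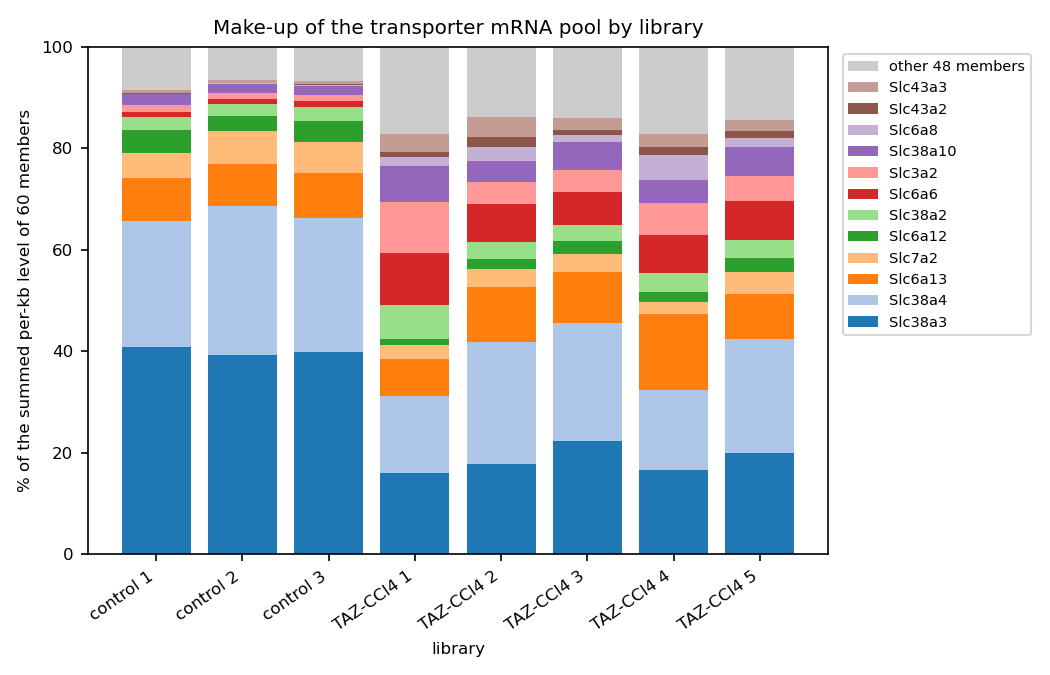
Share of each library's summed amino acid transporter RNA (normalised counts per kb of transcript, in percent) held by the most abundant members and by the rest, for 3 control and 5 TAZ-CCl4 libraries. Slc38a3 and Slc38a4 fill 66.8% on average in controls and 38.7% in TAZ-CCl4.

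Among the heavy chains, the partner of the exchangers rose and the renal-type partner did not pass. Slc3a2 (chr19:8706882-8723369, GRCm38, the build also called mm10; GENCODE M21 positions here and below) encodes the heavy chain 4F2hc, which brings SLC7 light chains to the cell surface. Its normalised counts were 772, 765 and 762 in controls and 2123, 1084, 1027, 1163 and 1029 in TAZ-CCl4 replicates 1 to 5. All 5 TAZ-CCl4 libraries lay above the controls, with replicate 1 far above the other 4. On the log2 scale it rose by 0.68 ± 0.23 (± here and with other fold changes is the SE; limma adjusted p = 0.0223), and by 0.49 without replicate 1 (adjusted p = 0.00363). The call was lost when any 1 control was left out (adjusted p = 0.0604 to 0.0624). Slc3a1 (chr17:85028376-85064236), the heavy chain of the cystine carrier of kidney and gut, was at 733 ± 125 and 627 ± 236 normalised counts, with a log2 fold change of -0.29 ± 0.27 (limma adjusted p = 0.381) that turned to 0.96 at equal totals.

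All 4 tested light chains rose, from low control levels. Slc7a5 (chr8:121881150-121907694) encodes LAT1, the exchanger for leucine and other large neutral amino acids. Normalised counts of 26.2, 40.3 and 28.9 in controls compared with 124, 58.4, 71.0, 66.4 and 81.0 in TAZ-CCl4, and the groups did not overlap. The log2 fold change was 1.28 ± 0.30 (limma adjusted p = 0.00366), but 0.27 (adjusted p = 0.483) under quantile normalisation. Slc7a8 (chr14:54722209-54781946) encodes LAT2, a neutral amino acid exchanger of epithelia. It was at 33.7, 62.3 and 47.6 normalised counts in controls and at 255, 108, 235, 167 and 274 in TAZ-CCl4. Every TAZ-CCl4 value exceeded every control value, and the log2 fold change was 2.06 ± 0.33 (limma adjusted p = 3.54e-04).

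The other two light chains export cationic amino acids in exchange for neutral ones and sodium. Slc7a7 (chr14:54369442-54417780) encodes y+LAT1, whose loss in people causes lysinuric protein intolerance and which macrophages also express. Its normalised counts were 39.5, 28.5 and 44.2 in controls and 183, 194, 261, 343 and 289.6 in TAZ-CCl4. The lowest TAZ-CCl4 library stood well above the highest control, with a log2 fold change of 2.71 ± 0.26 (limma adjusted p = 1.07e-05) that was 2.02 under quantile normalisation. Macrophage and Kupffer cell markers moved with it: 5 of 6 rose, and their summed normalised counts ranged from 1362 to 2105 in controls and from 8947 to 16812 in TAZ-CCl4, while Clec4f, a marker of resident Kupffer cells, was at 826 ± 196 and 344 ± 376 and did not pass. Their part in the rise of Slc7a7 was not tested. Slc7a6 (chr8:106168857-106198706), which encodes y+LAT2, went from 20.1 ± 3.27 to 92.4 ± 23.2 normalised counts (log2 fold change 2.12 ± 0.27, limma adjusted p = 7.58e-05). Exons of Slc7a7 overlap those of Oxa1l on the other strand, and the strand setting of the quantification is not given in the sources used here.

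Promoters of 42 of the 60 members, 23 of them tested, were found in the RefSeq table for GRCm38.p6 and searched on both strands from 250 bases before to 50 after the start for 3 motifs. The C/EBP-ATF response element (CARE, TGATGNAAN), which ATF4 binds in the amino acid response, was in 3 of the 42, against 4.5% of the 27025 genes in the table. The E-box (CACGTG), bound by MYC and by TFEB and its relatives, was in 9 of 42, against 8.09% of genes. The TEAD motif (GGAATG) was in 9 of 42, against 16.6% of genes. A match describes the letters in this window and is not a binding site. Of the members with a CARE match, Slc7a7 and Slc1a4 were called higher, as were 50% of all tested members, while Slc6a21 lay below the level filter and was lower in TAZ-CCl4. For Slc7a7 and Slc1a4, the sequences from 240 bases before to 10 after the start are shown 5′ to 3′ on the gene's strand, with the motif in capitals. For Slc7a7 the window is chr14:54417935-54418184 on the minus strand, the more distal of its starts in the table, and for Slc1a4 it is chr11:20332704-20332953 on the minus strand, where the motif reads on the other strand. The Slc7a7 window holds the motif at 2 places, 1 of them across the start.
Slc7a7: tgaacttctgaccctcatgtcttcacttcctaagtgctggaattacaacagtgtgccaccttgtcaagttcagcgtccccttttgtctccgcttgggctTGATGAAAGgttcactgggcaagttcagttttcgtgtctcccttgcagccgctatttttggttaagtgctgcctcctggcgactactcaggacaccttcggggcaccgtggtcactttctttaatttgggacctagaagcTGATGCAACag
Slc1a4: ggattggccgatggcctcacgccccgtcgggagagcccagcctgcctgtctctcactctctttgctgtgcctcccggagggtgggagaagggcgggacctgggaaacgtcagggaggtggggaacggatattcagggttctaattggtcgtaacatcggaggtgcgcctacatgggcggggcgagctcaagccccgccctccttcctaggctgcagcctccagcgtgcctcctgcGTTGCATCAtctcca

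For cationic amino acids, the liver carrier fell and the general one rose. Slc7a2 (chr8:40862396-40922308) encodes CAT-2, whose liver form is the low-affinity arginine carrier of hepatocytes. Normalised counts were 7417, 12015 and 9973 in controls and 1670.0, 2482, 2286, 1312 and 2571 in TAZ-CCl4. No TAZ-CCl4 library came near the controls, and the log2 fold change was -2.27 ± 0.24 (limma adjusted p = 2.52e-05) and -1.01 at equal totals. Slc7a1 (chr5:148327410-148399904) encodes CAT-1, the arginine and lysine carrier of most other cells. It rose from 28.2 ± 11.4 to 126 ± 94.0 normalised counts, with 292 in TAZ-CCl4 replicate 1 and 63.0 to 100.1 in the other 4. Its log2 fold change was 1.98 ± 0.48 (limma adjusted p = 0.00470), and 1.62 without that replicate, and the call was lost under quantile normalisation (adjusted p = 0.135). Slc7a4, a relative without established transport activity, went from 20.6 ± 3.09 to 67.2 ± 26.9 normalised counts (log2 fold change 1.58 ± 0.35, limma adjusted p = 0.00267; 0.54 with adjusted p = 0.223 under quantile normalisation).

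Both tested members of SLC1 rose. Slc1a5 (chr7:16781340-16798274) encodes ASCT2, a glutamine and neutral amino acid exchanger that is low in normal hepatocytes. Controls held 98.4, 70.2 and 64.0 normalised counts and TAZ-CCl4 libraries 301, 301, 189.9, 212 and 189. The groups stood apart in every library, with a log2 fold change of 1.60 ± 0.24 (limma adjusted p = 2.15e-04), 1.03 under quantile normalisation. Slc1a4 (chr11:20302180-20332713) encodes ASCT1, a carrier of serine, alanine and cysteine. It went from 79.8 ± 27.9 to 193 ± 101 normalised counts, with 368 in TAZ-CCl4 replicate 1 and 114 to 186 in the others. On the log2 scale it rose by 1.20 ± 0.38 (limma adjusted p = 0.0180), and the call was lost without control replicate 3 (adjusted p = 0.0914) and under quantile normalisation (adjusted p = 0.283).

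Of the 4 tested sodium-coupled glutamine and alanine carriers of the SLC38 cell-surface group, 3 fell and 1 rose, and the fall of Slc38a2 alone turned at equal totals. Slc38a3 (chr9:107650634-107669530) encodes SNAT3, the system N carrier that moves glutamine and histidine in either direction. Its normalised counts were 28689, 33197 and 30454 in controls and 4422, 5853, 6907, 4071 and 5609 in TAZ-CCl4. The highest TAZ-CCl4 library stayed far below the lowest control. On the log2 scale the difference was -2.54 ± 0.19 (limma adjusted p = 2.66e-06) and -1.29 at equal totals.

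Slc38a4 (chr15:96994820-97055956) encodes SNAT4, a system A carrier found mainly in liver. It was at 19206, 27306 and 22202 normalised counts in controls and at 4648, 8817, 7990.1, 4308 and 6936 in TAZ-CCl4. The groups did not overlap, and replicates 1 and 4 were the lowest. The log2 fold change was -1.85 ± 0.26 (limma adjusted p = 1.40e-04), -0.60 at equal totals (adjusted p = 0.0417) and -0.53 under quantile normalisation (adjusted p = 0.0911). Hepatocyte markers moved with both carriers: 7 of 8 fell and albumin did not pass, with the summed levels given above, and at equal totals 4 of 8 fell. Their part in the fall of the carriers was not tested.

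The remaining system A carriers were Slc38a2 and Slc38a1. Slc38a2 (chr15:96687392-96699730) encodes SNAT2, which many cells induce when amino acids are scarce. Its normalised counts were 3353, 3405 and 3711 in controls and 3269, 2015, 1678, 1645 and 1816 in TAZ-CCl4. Replicate 1 nearly reached the lowest control, and the other 4 were far lower. The log2 fold change was -0.79 ± 0.21 (limma adjusted p = 0.00788), but 0.46 at equal totals (adjusted p = 0.0849) and -0.10 under quantile normalisation (adjusted p = 0.721), so its direction turned with the scaling. Slc38a1, which encodes SNAT1, a carrier better known from brain and dividing cells, went from 77.6 ± 16.4 to 133 ± 16.6 normalised counts (log2 fold change 0.78 ± 0.21, limma adjusted p = 0.00867; 0.06 with adjusted p = 0.814 under quantile normalisation).

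Of the intracellular or less studied SLC38 members, 1 of 4 fell, with its sign turned at equal totals, and 3 did not pass. Slc38a6 (chr12:73286779-73354049) was at 895, 882 and 816 normalised counts in controls and at 401, 511, 577, 495 and 480.0 in TAZ-CCl4. The TAZ-CCl4 libraries were all lower, with a log2 fold change of -0.82 ± 0.14 (limma adjusted p = 4.68e-04) that turned to 0.43 at equal totals (adjusted p = 0.0141). Slc38a9, the arginine sensor of the lysosome that signals to mTORC1, was at 306 ± 71.7 and 275 ± 109.6 normalised counts (log2 fold change -0.22 ± 0.32, 1.03 at equal totals). Slc38a7, a lysosomal glutamine exporter, was at 447 ± 16.4 and 453 ± 41.7 (0.02 ± 0.13). Slc38a10 was at 1659 ± 94.3 and 1779.5 ± 363 (0.08 ± 0.17), and passed as higher under quantile normalisation (0.58, limma adjusted p = 0.0157). At equal totals, where the median of all genes was 1.26, all 4 passed as higher.

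The SLC36 family includes carriers that couple amino acids to protons, on lysosomes and at the surface. Slc36a4 (chr9:15709738-15743361), a high-affinity proline and tryptophan carrier, was at 110.3, 145 and 108 normalised counts in controls and at 310.1, 187, 270.4, 221 and 249 in TAZ-CCl4. All TAZ-CCl4 libraries were higher, with a log2 fold change of 1.02 ± 0.20 (limma adjusted p = 0.00143) that was 0.60 under quantile normalisation. Slc36a1 (chr11:55204350-55236330), the lysosomal carrier PAT1, was at 872 ± 42.5 and 970.5 ± 125 and did not pass (log2 fold change 0.15 ± 0.13, limma adjusted p = 0.351), though it passed as higher under each of the 4 other scalings, with 1.40 at equal totals and 0.35 when upper quartiles were set equal.

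Of the 4 facilitated carriers 2 rose and 2 fell, and the SLC43 pair of leucine carriers moved in opposite directions. Slc43a2 (chr11:75531694-75577575) encodes LAT4 and Slc43a1 (chr2:84838850-84863594) encodes LAT3, both of which let branched-chain amino acids, phenylalanine and methionine pass without sodium. Slc43a2 was at 164, 153 and 143 normalised counts in controls and at 734, 1658, 779.5, 1065 and 1054 in TAZ-CCl4. Every TAZ-CCl4 library was several times higher, with a log2 fold change of 2.72 ± 0.24 (limma adjusted p = 6.73e-06), 2.62 under quantile normalisation. Slc43a1 was at 187, 140.5 and 159 normalised counts in controls and at 13.2, 51.9, 31.2, 15.6 and 41.3 in TAZ-CCl4. It fell in each library, with a log2 fold change of -2.53 ± 0.44 (limma adjusted p = 5.78e-04), -1.31 at equal totals.

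Slc16a10 (chr10:40033532-40142258) encodes TAT1, which lets tyrosine, tryptophan and phenylalanine leave and enter the hepatocyte. Normalised counts were 1553, 1440.3 and 1339.8 in controls and 133, 198, 247, 139 and 236 in TAZ-CCl4. The groups were far apart, with a log2 fold change of -2.96 ± 0.22 (limma adjusted p = 2.73e-06) and -1.71 at equal totals. Slc43a3 (chr2:84936579-84958509), a relative that carries purine nucleobases, was at 386, 571 and 485 in controls and at 924, 1303, 687, 598 and 591 in TAZ-CCl4. The lowest TAZ-CCl4 library was only just above the highest control. The log2 fold change was 0.72 ± 0.26 (limma adjusted p = 0.0338), and the call was lost without control replicate 1 (adjusted p = 0.139), without control replicate 3 (0.0776), without TAZ-CCl4 replicate 1 (0.0666) and without limma's trend (0.0566).

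Of the 6 tested members with a TEAD motif match, Slc43a2 and Slc7a7 were called higher and Slc43a1, Slc6a9 and Slc6a13 lower, and Slc36a1 did not pass. Of the 4 with an E-box, Slc43a1 and Slc6a16 were called lower, and Slc36a1 and Slc38a7 did not pass. These calls are on the deposited scaling, and the part of a motif in them was not tested. As examples picked after the calls were seen, the promoter windows of the SLC43 pair and of Slc36a1, which holds 2 E-boxes and a TEAD motif, are shown. Each runs from 240 bases before to 10 after the RefSeq start on the plus strand of GRCm38.p6, in capitals where a motif lies: chr11:75531454-75531703 for Slc43a2 (TEAD motif on the other strand), chr2:84840083-84840332 for Slc43a1 (TEAD motif, then E-box) and chr11:55204100-55204349 for Slc36a1 (TEAD motif, then both E-boxes). No matches of different motifs overlap in these windows.
Slc43a2: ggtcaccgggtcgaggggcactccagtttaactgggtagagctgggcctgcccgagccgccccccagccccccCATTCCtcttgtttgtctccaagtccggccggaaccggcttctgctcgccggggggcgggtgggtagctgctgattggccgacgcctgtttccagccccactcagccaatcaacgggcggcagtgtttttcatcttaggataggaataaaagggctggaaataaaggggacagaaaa
Slc43a1: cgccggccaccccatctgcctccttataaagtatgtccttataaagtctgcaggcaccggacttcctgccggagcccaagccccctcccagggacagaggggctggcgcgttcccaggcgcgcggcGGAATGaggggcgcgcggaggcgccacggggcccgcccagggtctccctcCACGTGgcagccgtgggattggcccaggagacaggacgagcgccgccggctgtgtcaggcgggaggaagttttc
Slc36a1: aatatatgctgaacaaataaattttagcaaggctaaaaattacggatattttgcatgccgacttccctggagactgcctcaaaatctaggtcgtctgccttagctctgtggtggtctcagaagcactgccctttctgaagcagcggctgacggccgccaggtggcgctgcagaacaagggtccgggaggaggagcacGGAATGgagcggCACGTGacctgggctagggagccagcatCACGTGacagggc

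Osmolyte and creatine carriers of SLC6 moved in opposite directions. Slc6a6 (chr6:91684053-91759066) encodes TauT, the taurine carrier. In controls it gave 1459, 1907 and 1841 normalised counts, and in TAZ-CCl4 6595, 5638, 4709.9, 4239 and 4964. The groups were widely separated, with a log2 fold change of 1.58 ± 0.17 (limma adjusted p = 2.04e-05), and the fold change was 2.26 under quantile normalisation and 2.83 at equal totals. Slc6a8 (chrX:73673150-73682502), the creatine carrier, was at 99.0, 90.4 and 160.2 in controls and at 574, 1023, 526, 1368 and 554 in TAZ-CCl4. Replicates 2 and 4 were the highest, and all 5 exceeded the controls (log2 fold change 2.72 ± 0.34, limma adjusted p = 6.48e-05).

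Slc6a12 and Slc6a13 are neighbours on chromosome 6 and fell, though Slc6a13 did not at equal totals. Slc6a12 (chr6:121343076-121365775) encodes BGT1, the betaine and GABA carrier. It was at 2469.7, 1970.1 and 2546 normalised counts in controls and at 248, 487, 659.9, 363 and 598 in TAZ-CCl4. The groups did not overlap, with a log2 fold change of -2.38 ± 0.29 (limma adjusted p = 5.42e-05) and -1.13 at equal totals. Slc6a13 (chr6:121300227-121337733) encodes GAT2, a GABA and taurine carrier of the hepatocyte surface in mouse. Its normalised counts were 4929.5, 5853 and 5727 in controls and 1709.9, 3017, 2626, 3094 and 2074 in TAZ-CCl4. All TAZ-CCl4 libraries were lower, with a log2 fold change of -1.17 ± 0.20 (limma adjusted p = 5.44e-04), but it was 0.08 at equal totals (adjusted p = 0.724) and -0.37 under quantile normalisation (adjusted p = 0.195).

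Slc6a9 (chr4:117834506-117875198) encodes the glycine carrier GlyT1. Normalised counts were 822, 662 and 717 in controls and 234, 239, 201, 198 and 196 in TAZ-CCl4. The TAZ-CCl4 values lay close together and below every control, with a log2 fold change of -1.78 ± 0.14 (limma adjusted p = 3.81e-06), -0.53 at equal totals and -1.80 under quantile normalisation. Slc6a19 (chr13:73679745-73704865) encodes B0AT1, the neutral amino acid carrier of kidney and gut. It was at 1.66, 0 and 1.06 normalised counts in controls and at 24.3, 10.95, 9.97, 18.9 and 16.3 in TAZ-CCl4. It passed the level filter through the TAZ-CCl4 libraries alone (log2 fold change 3.21 ± 0.55, and 1.23 with a pseudocount of 10), so it had to differ and no p is given. Kidney tubule markers were near 0: Umod, Slc12a1 and Aqp2 were listed at 0 in all libraries, and the summed level of the list stayed at or below 5.64. Slc6a16, an orphan carrier that passed the filter through the controls alone, fell from 50.9 ± 3.74 to 4.91 ± 3.36 normalised counts (log2 fold change -3.37 ± 0.58, likewise without a p).

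**Figure D3:**
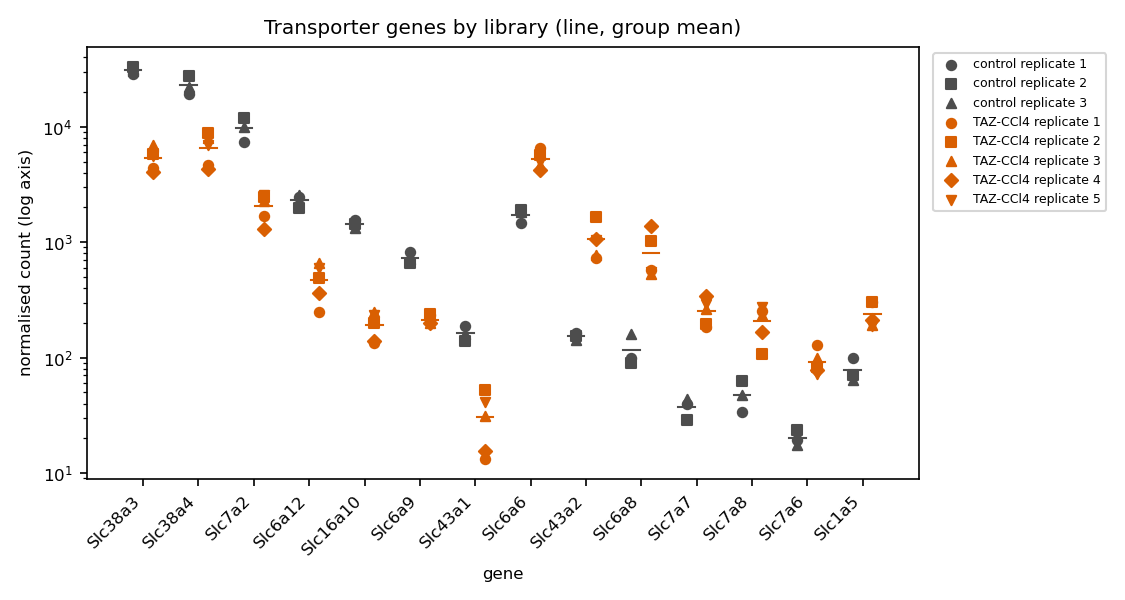
Normalised counts (log axis) of selected amino acid transporters in each of the 3 control and 5 TAZ-CCl4 libraries, 1 point per library with a line at the group mean. Points of Slc38a3, Slc7a2 and Slc16a10 in TAZ-CCl4 lie below the controls, and those of Slc6a6, Slc43a2 and Slc7a7 above them.

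The 28 members below the level filter were close to undetected in whole liver, and 19 of them had no library above 10 normalised counts. The highest single value was 24.0, for Slc6a21 in control replicate 1, and Slc6a21 was at 0 in 4 of the 5 TAZ-CCl4 libraries. In 5 of the 26 above 0 in some library (19.2%, against 9.87% of all genes at such levels) the groups did not overlap: Slc6a5, Slc6a7 and Slc6a21 were lower and Slc1a1 and Slc7a9 higher in TAZ-CCl4. Slc7a9, the light chain that pairs with Slc3a1, was listed at 0 in controls and at 7.77, 0.559, 3.89, 18.8 and 0.590 in TAZ-CCl4. Slc36a2, Slc36a3, Slc6a3, Slc6a15 and Slc7a10 were likewise listed at 0 in each control and above 0 in at least 1 TAZ-CCl4 library. Slc7a3, a cationic carrier with a mean of 9.231 just outside the filter, was at 6.67, 1.34 and 0.832 in controls and at 6.29, 17.0, 7.19, 16.2 and 18.3 in TAZ-CCl4, where the groups overlapped, and Slc1a3 came next with a mean of 7.075. Just inside the filter stood Slc6a19 with a mean of 10.4 and Slc6a16 with 22.15. The others included the glutamate carriers Slc1a6 and Slc1a7, the SLC6 members Slc6a2, Slc6a4, Slc6a14, Slc6a17 and Slc6a18, the SLC7 members Slc7a13, Slc7a14 and Slc7a15, and Slc38a5, Slc38a8 and Slc38a11.

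Ratios between related carriers do not depend on the factor by which a library is scaled. Of 11 pairs, 10 had both genes tested, and in 7 of these the groups did not overlap. No such share was computed for other pairs of genes, and of all single tested genes 60.1% did not overlap. Slc43a2 over Slc43a1, Slc7a1 over Slc7a2 and Slc38a1 over Slc38a2 each set a gene that rose over a gene that fell. Neither gene overlapped between the groups, so these ratios had to separate. They are ratios of normalised counts, not per length, and carry no test. The log2 differences were taken with 1 added to each count, so for low genes they are not wholly free of the library's factor. The ratio of Slc43a2 to Slc43a1 was 0.878, 1.09 and 0.898 in controls and 55.6, 31.9, 25.0, 68.1 and 25.5 in TAZ-CCl4, a log2 difference of 5.25. From about equal counts, the pair had moved to a clear excess of Slc43a2 in each TAZ-CCl4 library. The ratio of Slc7a1 to Slc7a2 was 0.00208, 0.00311 and 0.00318 in controls and 0.175, 0.0364, 0.0366, 0.0481 and 0.0389 in TAZ-CCl4, a log2 difference of 4.24. Slc7a2 thus still gave more counts than Slc7a1 in every library.

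Smaller log2 differences separated the groups in Slc38a1 over Slc38a2 (1.57), Slc38a2 over Slc38a4 (1.06), Slc3a2 over Slc3a1 (0.97), Slc7a5 over Slc7a8 (-0.78) and Slc6a12 over Slc6a13 (-1.21). Slc3a2 and Slc3a1 were near parity in controls, at 0.904, 1.03 and 1.26, and at 1.74 to 2.86 in TAZ-CCl4. The groups overlapped for Slc1a5 over Slc1a4, Slc7a6 over Slc7a7 and Slc36a1 over Slc36a4. The pair of Slc38a5 and Slc38a3 could not be compared, since Slc38a5 was below the filter.

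**Figure D4:**
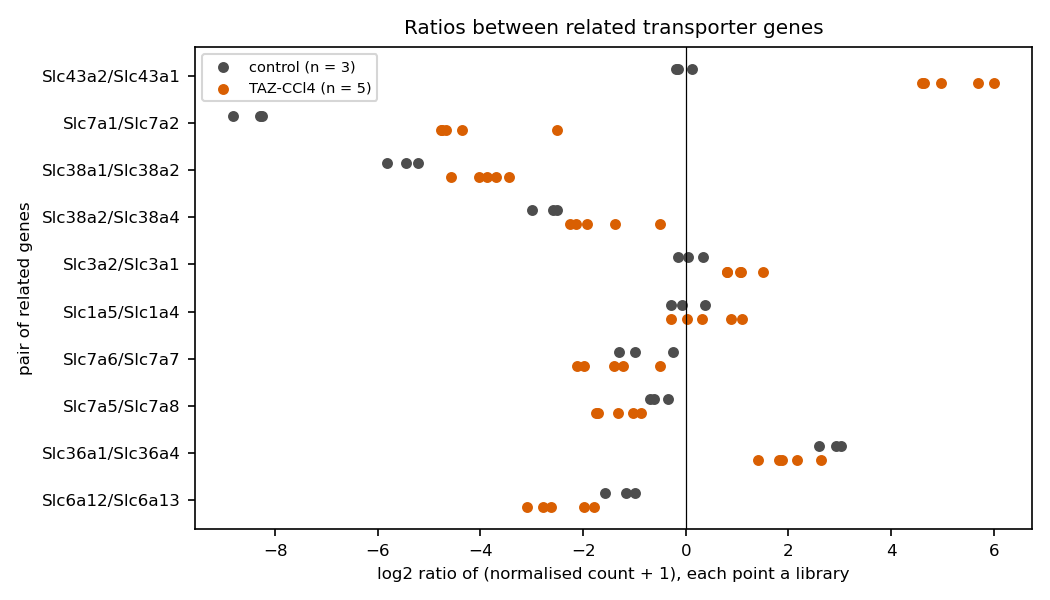
Log2 ratio of the normalised counts of related transporters in each library, for the 10 pairs with both genes tested. The ratio of Slc43a2 to Slc43a1 moves from -0.07 on average in controls to 5.18 in TAZ-CCl4, and that of Slc7a1 to Slc7a2 from -8.45 to -4.21.

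The 5 TAZ-CCl4 libraries were not alike, a pattern picked out after the values were seen and described without a test. Replicate 1 was the highest of the 5 in 8 of the 16 members that rose (50%), against 29.2% of all genes that rose. These included Slc3a2, Slc7a1, Slc7a5, Slc7a6 and Slc1a4. Replicate 1 was also the highest in 14 of 24 tested genes of the amino acid response (58.3%), against 21.1% of all tested genes, and it held the highest value of Wwtr1, 9021 normalised counts. Among the 11 members that fell, replicates 1 and 4 were the 2 lowest in 6 (54.5%), against 23.1% of all genes that fell and 5 of 8 hepatocyte markers (62.5%). Slc38a3, Slc38a4, Slc7a2, Slc6a12, Slc16a10 and Slc43a1 shared that order.

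**Figure D5:**
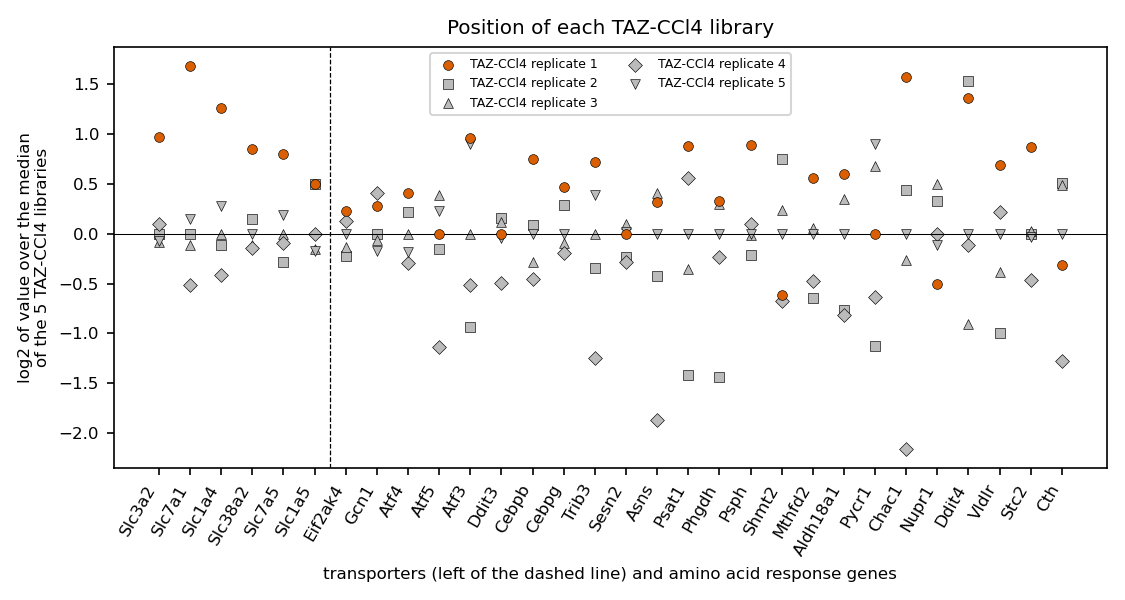
Log2 of each TAZ-CCl4 library's normalised count over the median of the 5 TAZ-CCl4 libraries, for 6 transporters chosen after their values were seen (left of the dashed line) and 24 tested genes of the amino acid response, with replicate 1 in orange. Replicate 1 stands above the other 4 in Slc3a2, Slc7a1, Slc1a4, Slc38a2 and Slc7a5, and it is the highest library in 14 of the 24 response genes.

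Genes of the GCN2 and ATF4 response to amino acid shortage, among them Eif2ak4, which encodes GCN2 itself, rose more often than they fell. Of 24 tested, 12 rose (50%, against 32.4% of all genes), 4 fell (16.7%, against 29.8%) and 8 did not pass; the median log2 fold change was 0.96. At equal totals 20 rose and 2 fell, where 76.3% of all genes rose and 6.37% fell. Under quantile normalisation 8 of the 24 rose, 4 fell and 12 did not pass, where 27.8% of all genes rose and 29.8% fell. Phgdh, the first enzyme of serine synthesis, went from 7.43 ± 3.96 to 530.2 ± 203 normalised counts (log2 fold change 5.97 ± 0.44). Stc2, a secreted stress-induced glycoprotein, went from 7.29 ± 3.24 to 266 ± 101 (5.03 ± 0.37). Both are counted among the 12 that rose, but they entered the test through TAZ-CCl4 alone, with control means under 10. No p is therefore given for them. Asns, asparagine synthetase, went from 59.4 ± 30.5 to 266 ± 124 (2.09 ± 0.52, limma adjusted p = 0.00530), but its groups overlapped and the call was lost under quantile normalisation (adjusted p = 0.0548). The 4 that fell were Cth (log2 fold change -2.95), a cysteine-forming enzyme, the mitochondrial serine enzyme Shmt2 (-2.13), Chac1 (-2.29), which degrades glutathione, and the transcription factor Cebpb (-1.76). The groups overlapped for Chac1, and the calls of Chac1 and Cebpb were lost at equal totals (limma adjusted p = 0.177 and 0.0707). The RNA of Atf4 itself did not pass (-0.15, limma adjusted p = 0.457; 1.10 at equal totals).

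Most genes of lysosomal amino acid sensing and mTORC1 did not pass. Of 37 tested, 4 rose (10.8%, against 32.4% of all genes), 13 fell (35.1%, near the 29.8% of all genes) and 20 did not pass. The median log2 fold change was -0.15. At equal totals 30 rose and none fell, where 76.3% of all genes rose and 6.37% fell. The median was then 1.10, against 1.26 for all genes. Rragd, a Rag GTPase whose transcription TFEB and its relatives control, stood out at 37.2 ± 13.6 and 1557 ± 429.6 normalised counts (log2 fold change 5.37 ± 0.26, limma adjusted p = 3.00e-07). Rragb, also counted among those that rose, was at 2.37 ± 2.30 in controls and 19.2 ± 16.2 in TAZ-CCl4. It entered the test through TAZ-CCl4 alone, and its groups overlapped. Lamtor4, a subunit of the Ragulator complex, fell from 1173 ± 46.1 to 410.1 ± 56.0 (-1.52 ± 0.14, and -0.27 at equal totals).

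Enzymes that use what the carriers bring in fell more often than they rose. Of 15 tested enzymes of glutamine, glutamate and branched-chain amino acids, 2 rose (13.3%, against 32.4% of all genes), 10 fell (66.7%, against 29.8%) and 3 did not pass. The median log2 fold change was -1.57. At equal totals 5 rose and 6 fell, where 76.3% of all genes rose and 6.37% fell. Glul, the glutamine synthetase of hepatocytes around the central vein, was at 24019, 20234 and 17274 normalised counts in controls and at 890.3, 1987, 1088, 994 and 858 in TAZ-CCl4 (log2 fold change -4.20 ± 0.26, limma adjusted p = 1.003e-06). Oat, ornithine aminotransferase of the same zone, fell from 20504 ± 3405 to 509 ± 230.0 (-5.41 ± 0.28). Both stayed lower at equal totals.

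Of 22 tested amino acid and peptide carriers outside the set, 5 rose (22.7%, against 32.4% of all genes), 12 fell (54.5%, against 29.8%) and 5 did not pass. The median log2 fold change was -0.55. At equal totals 13 rose and 4 fell, where 76.3% of all genes rose and 6.37% fell. Cltrn encodes collectrin, which Slc6a19 needs to reach the cell surface in kidney. It was at 3.69 ± 1.23 normalised counts in controls and at 50.2, 17.7, 83.5, 236 and 30.7 in TAZ-CCl4, above each control (log2 fold change 3.64 ± 0.71; no p is given, since it entered the test through TAZ-CCl4 alone). Slc15a3, a lysosomal peptide and histidine carrier of immune cells, went from 39.5 ± 12.2 to 284 ± 119 (2.76 ± 0.37). Of 20 tested regulators of transporter genes, 6 rose (30%, near the 32.4% of all genes), 8 fell (40%, against 29.8%) and 6 did not pass. Those that rose include Wwtr1, the gene that the injected plasmid carries. The median was -0.35. At equal totals 13 rose and none fell, again with 76.3% of all genes higher and 6.37% lower. Tead4, a DNA-binding partner of TAZ, went from 6.10 ± 2.34 to 373 ± 108 normalised counts (5.72 ± 0.29), and it too entered the test through TAZ-CCl4 alone.

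Markers of other cells moved beside the transporters. All 6 tested cholangiocyte and progenitor markers rose, as did 4 of 7 stellate cell markers, whose summed levels ranged from 1035 to 1600 normalised counts in controls and from 5802 to 13078 in TAZ-CCl4. All 5 markers of dividing cells rose, from 115 to 308 summed normalised counts to between 1385 and 4251. Neutrophil markers rose in 3 of 3 and T and NK cell markers in 4 of 6, while red cell markers fell in 3 of 3. The T and NK cell markers that rose, Cd3e, Cd8a, Nkg7 and Klrb1c, all had control means under 10. So did the neutrophil markers S100a8 and Retnlg and the cholangiocyte marker Cftr. These genes entered the test through TAZ-CCl4 alone and had to differ, so their counts are not a result. Of all tested genes 32.4% rose and 29.8% fell. At equal totals 5 of 6 T and NK cell markers were called higher and 1 of 3 red cell markers lower. Under quantile normalisation 1 of 6 and 2 of 3 were, and 2 of 3 neutrophil markers were called higher. Of 6 endothelial markers 3 rose and 2 fell, and their summed levels overlapped, at 1268 to 2277 and 1472 to 2304. Of 5 B and plasma cell markers 1 rose, and of 2 mesothelial markers 1 fell, Upk3b, which entered the test through the controls alone. The pancreatic acinar markers Prss1, Cpa1 and Pnlip were listed at 0, and the fourth fell. The part of these cells in the transporters' differences was not tested.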

How the data were processed

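Poly-A RNA of 8 mouse liver libraries was read from both ends on a NovaSeq instrument (Illumina), per the labels' protocols. The deposited values are a normalised count signal per gene, made by the authors with kallisto and DESeq2, as the deposited table's name says. DESeq2 and the mm10 build are also given, per the submitters' processing notes. The sources used here give no versions, annotation, strand setting or gene filter. Totals differed between groups, as reported above. Values below 10 were whole multiples of the value of 1 read, within 0.03, in 47.3% to 66.8% of cases, too few to recover reads for a count model. Estimated this way, depth was 18.6 to 24.9 M reads per control and 12.4 to 33.8 M per TAZ-CCl4 library.

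Values were transformed as log2(value + 1), which understates changes of low genes. All 14171 genes with a mean of at least 10 were compared between 3 control and 5 TAZ-CCl4 libraries in 1 fit with limma 3.58.1 (trend in the prior variance; R 4.3.3). Benjamini-Hochberg adjustment ran over all of them, with a threshold of 0.05. The fit was tested on simulated data first. No covariate was used, because project ID and group coincide. Alternatives were pseudocounts of 0.5 and 10, no filter, a filter at 50, 4 other scalings, no trend, and each library left out in turn.

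Values in every library are given for called members with a group mean of at least 200 and for Slc3a2, Slc7a5, Slc1a5 and Slc38a2. Further values per library were added after they were seen. Of each gene list, the 2 called genes with the largest fold change and a group mean of at least 50 are named, and Asns, Atf4 and the 4 response genes that fell were added after their values were seen. The 2 genes outside the rule and 1 member below the filter are not reported here. Members and lists were chosen with earlier results of these data known. Exons of 6 tested members overlap a gene on the opposite strand: Slc7a2, Slc6a9, Slc3a1, Slc38a10, Slc7a7 and Slc43a2. Lengths and positions came from GENCODE M21, promoters from RefSeq.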

Additional observations from a re-analysis of the deposited data

Results flagged for a closer look

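In TAZ-CCl4 replicate 1, 4 of the 32 tested members stood far from the other 4 libraries of the group by the gap between neighbouring values. They were Slc3a2 at 2123 normalised counts, Slc38a2 at 3269, Slc7a1 at 292 and Slc1a4 at 368. In each of them replicate 1 was the highest of the 5. By chance, about 1 in 20 groups is marked in this way, and members are not independent of each other within a library. Wwtr1 and 14 of the 24 tested amino acid response genes were also highest in that library, and their part in these values was not tested.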

How the results depend on the processing

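The scaling mattered most. Over all tested genes, equal totals gave 10808 calls higher and 903 lower, and leaving Mup and mitochondrial genes out of those totals gave 8912 and 1512, against 4592 and 4230 on the deposited scaling. Members called higher numbered 13 to 22 over all alternatives and members called lower 8 to 14, within 1.5 times of the 16 and 11 reported. Under these respective scalings the sign turned for Slc38a2 (0.46 and 0.040), Slc38a6 (0.43 and 0.014), Slc38a9 (1.03 and 0.61) and Slc3a1 (0.96 and 0.54). Slc6a13 turned with equal totals over all genes alone (0.084). Quantile normalisation ended the call of 8 members. With 1 library left out, the log2 fold change of Slc38a10 ranged from -0.015 to 0.19 and that of Slc38a7 from -0.035 to 0.045, neither of which had passed. Of the 27 called members, 24 passed in each of the 8 fits without 1 library, the exceptions being Slc3a2, Slc1a4 and Slc43a3. Apart from the scaling shifts, the cause of these changes was not tested. No paired analysis was possible because the replicate numbers run separately under different project IDs and pair nothing. Transporters with values near the floor of 10 are limited by depth, which is known only as an estimate.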
